A study of Mus musculus with 88 samples.

Results

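The lysosome is the acid compartment in which cells break down protein, glycan, lipid and nucleic acid. The genes described here are 44 of the 54532 genes counted in the study, chosen by symbol from the parts of that compartment. They were 11 cathepsins and legumain, 8 glycosidases, 4 sulfatases and 7 genes listed as lipid hydrolases, activators and cholesterol export. The rest were 2 enzymes named for neuronal ceroid lipofuscinosis, 5 membrane proteins, 4 subunits of the proton pump, and the 3 transcription factors Tfeb, Tfe3 and Mitf. All 44 symbols were found in the count table. The exons of 14 of them overlap exons of another gene, and the strand used in counting is not given in the sources used here, so reads of such overlaps cannot be told apart.

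The tissue was cortex of C57BL/6 mice of both sexes, 8 to 9 weeks old at injury, sampled as 4 mm punches from each hemisphere after perfusion. Injured mice received a controlled cortical impact, a model of traumatic brain injury in which a driven tip (2 mm wide, 6.0 m/s, 100 ms, 1 mm deep) strikes the brain through a 3 mm opening in the skull, here over the right somatosensory cortex. They were killed at 24 or 72 h and had also had isoflurane anaesthesia, surgery and buprenorphine at 0.05 mg/kg. Naive mice had no surgery, and no group had surgery without impact, so the effects of impact, surgery and drugs cannot be told apart. The ipsilateral groups held 13 naive mice (7 females, 6 males), 15 mice at 24 h (7 females, 8 males) and 15 at 72 h (9 females, 6 males). The contralateral groups held the same animals and 1 more male at 72 h. The right punch of a naive mouse is called ipsilateral.

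Lysosomal hydrolases are made as inactive precursors, reach the lysosome mainly by mannose 6-phosphate receptors and work at the low pH kept by a proton-pumping ATPase. Tfeb, Tfe3 and Mitf bind a short palindrome, the CLEAR element, near the start of many lysosomal genes and raise their transcription when lysosomes are under load. In brain, microglia and infiltrating macrophages are rich in lysosomes and clear dead cells and myelin after injury, and inherited loss of many of these enzymes causes storage disease of neurons.

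The core of the CLEAR element is CACGTG, and the promoters of 5 members that hold it are printed to show how its number and place differ between an acid protease, a glycosidase, membrane proteins and a pump subunit. Each is the 250 bases before the start site, from RefSeq (GRCm38.p6), read 5′ to 3′ on the strand of the gene, with CACGTG in capitals. They lie at chr7:142387828-142388077 (Ctsd, minus strand), chrX:134601006-134601255 (Gla, minus), chr8:13158911-13159160 (Lamp1, plus), chr8:3500269-3500518 (Mcoln1, plus) and chr16:44139260-44139509 (Atp6v1a, minus).
Ctsd: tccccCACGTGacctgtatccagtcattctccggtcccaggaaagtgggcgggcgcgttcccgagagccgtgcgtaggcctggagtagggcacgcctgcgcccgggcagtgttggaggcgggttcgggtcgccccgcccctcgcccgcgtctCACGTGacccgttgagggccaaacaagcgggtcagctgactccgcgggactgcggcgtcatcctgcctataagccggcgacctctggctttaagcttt
Gla: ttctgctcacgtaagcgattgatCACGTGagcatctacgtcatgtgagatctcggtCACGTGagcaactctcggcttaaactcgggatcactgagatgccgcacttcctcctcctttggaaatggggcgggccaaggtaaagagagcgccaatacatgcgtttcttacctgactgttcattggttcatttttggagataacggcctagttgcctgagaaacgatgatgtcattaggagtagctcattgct
Lamp1: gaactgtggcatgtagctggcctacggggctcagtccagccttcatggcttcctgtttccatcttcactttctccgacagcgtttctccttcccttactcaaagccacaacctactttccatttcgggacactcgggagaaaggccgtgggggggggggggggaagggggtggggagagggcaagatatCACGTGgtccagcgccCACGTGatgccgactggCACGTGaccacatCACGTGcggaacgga
Mcoln1: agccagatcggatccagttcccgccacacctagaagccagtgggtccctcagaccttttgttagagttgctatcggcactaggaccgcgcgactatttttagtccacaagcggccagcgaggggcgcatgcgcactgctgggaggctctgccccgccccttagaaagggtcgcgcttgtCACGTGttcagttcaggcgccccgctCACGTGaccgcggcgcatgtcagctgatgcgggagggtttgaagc
Atp6v1a: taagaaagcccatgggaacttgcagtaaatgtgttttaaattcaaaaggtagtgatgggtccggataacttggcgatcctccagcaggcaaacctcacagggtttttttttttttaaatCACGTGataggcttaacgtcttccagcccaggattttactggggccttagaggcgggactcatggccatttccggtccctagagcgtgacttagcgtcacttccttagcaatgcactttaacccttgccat
Lamp1 holds 4 copies within these bases, Ctsd, Gla and Mcoln1 hold 2 each, and Atp6v1a holds 1.

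Promoters were listed for 37 of the 44 members. The window searched reached past the start site, where the sequences printed above end. Searched on both strands, CACGTG stood in the window of 14 of these 37 members. Counted by promoter, it stood in 14 of their 45 promoters (31.1%) and in 7.15% of all 32851 promoters searched. The 14 members were Ctsa, Ctsd, Ctsf, Ctsl, Lgmn, Gaa, Gla, Glb1, Naglu, Sgsh, Lamp1, Mcoln1, Atp6v0d1 and Atp6v1a. The longer form TCACGTGA, which contains CACGTG, was found in 6 members (6 of their 45 promoters) and in 0.974% of all promoters. The related TCATGTGA was found in 5 members (Ctss, Gla, Grn, Tpp1 and Ppt1), in 5 of the 45 promoters, and in 0.986% of all promoters. In Ctss, Tpp1 and Ppt1 it lay after the start site. Of the 14 members with CACGTG, 10 were higher and 4 lower at 72 h on the injured side by the test given below. Of the 23 with a promoter and without it, 15 were higher, 0 lower and 8 not called. Over all genes tested, 27.8% were higher and 20.7% lower, and the difference between the members with and without CACGTG was not tested. All 4 lower calls (Ctsf, Gaa, Mcoln1 and Atp6v0d1) were lost under at least 1 other setting, given with each gene. These matches are a description of the letters in the window.

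Levels are given as CPM, counts scaled to a common library size with TMM factors, and changes as log2 fold changes ± SE from edgeR's quasi-likelihood test with a term for the labelled batch. A gene was called at a Benjamini-Hochberg adjusted p under 0.05 over all genes tested, averaged over the sexes. Gene counts per library ranged from 10.6 to 26.4 M. The animal labelled LF3, a 72 h female, stood apart on both sides: mitochondrial genes took 10.5% and 7.80% of its counts against 2.35 to 6.73% elsewhere, its TMM factors were 0.775 and 0.631 against 0.849 to 1.14, and Slc17a7, a neuronal transporter, reached 9702 and 9439 CPM against 773 to 2377. The naive contralateral libraries of KM2 and CM1 also lay far from their group. Batch C held 72 h libraries only, so the batch term rests the 72 h comparison with naive on batch B (4 naive and 5 ipsilateral 72 h libraries). For the comparisons of the injured side with naive cortex, members whose call changes without LF3 or without the batch term are therefore named.

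Together the 44 genes took a median of 0.546% of all counts in naive ipsilateral libraries (0.513 to 0.658%), 0.661% at 24 h (0.579 to 0.697%) and 1.22% at 72 h (0.624 to 1.69%). Their summed level was 5209 to 6694 CPM (median 5541) in naive cortex, 5629 to 6790 CPM (median 6395) at 24 h and 8050 to 15270 CPM (median 11370) at 72 h. On this summed level every 72 h library lay above all naive and 24 h libraries, and the 24 h libraries overlapped the naive ones. On the share of counts the lowest 72 h library, LF3, lay within the ranges of both. In the contralateral cortex the median share was 0.537%, 0.562% and 0.609%. Punches are bulk tissue, so more cells of a type and more RNA per cell cannot be told apart.

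At 24 h on the injured side, 18 of the 44 members were higher than in naive cortex, 6 were lower and 20 were not called, where 22.9% of all 19126 genes tested were higher and 20.1% lower. The median change of the members was 0.15 on the log2 scale, against 0.01 over all genes. At 72 h 30 members were higher, 4 lower and 10 not called, with 27.8% of genes higher and 20.7% lower, and the median change was 0.80 against 0.06 over all genes. Against 24 h, 30 members were higher at 72 h, 3 lower and 11 not called (21.7% of genes higher, 15.3% lower). The median of this change was 0.76 against 0.01 over all genes. Of the members, 17 were higher at both times, 11 were called (as higher) at 72 h alone, 2 were lower at 24 h and higher at 72 h (Hexa and Glb1), and 7 were called at neither time. Without LF3 the counts were 19 higher and 10 lower at 24 h, where 25.8% of genes were higher and 25% lower, and 34 higher and 3 lower at 72 h, where 25.7% were higher and 22.6% lower.

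Without LF3 all calls at 24 h were kept, and Asah1 (0.16) was also higher and Man2b1 (-0.19), Npc1 (-0.23), Ppt1 (-0.09) and Ids (-0.24) lower. At 72 h Ctsf and Gaa were lost without LF3, while Gm2a (0.35), Npc1 (0.44), Psap (0.27) and Arsb (0.27) were also higher and Ids (-0.39) lower. With no batch term Ctsf was lost at 24 h, and Ctsf, Gaa and Mcoln1 were lost at 72 h, where Tfe3, Gm2a, Npc1 and Psap were also higher and Ids lower.

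**Figure D1:**
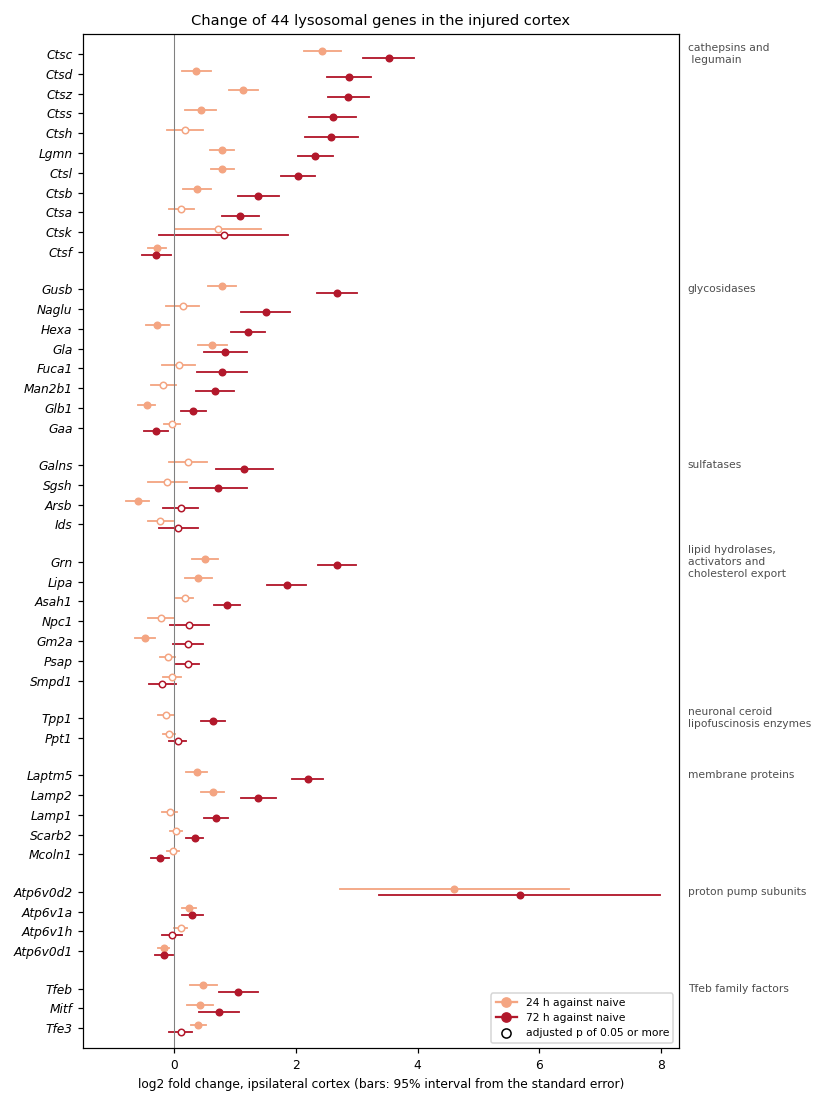
Log2 fold change of each of the 44 genes against naive on the injured side (horizontal axis) at 24 h (light) and 72 h (dark), with 95% intervals from the standard error and genes grouped by role; open points were not called. Ctsc lies at 3.53 at 72 h, and Ctsf, Gaa, Mcoln1 and Atp6v0d1 lie below 0.

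The cathepsins are the lysosome's proteases, and legumain (Lgmn) is an asparaginyl protease that trims them. Of these 11 genes 7 were higher and 1 lower at 24 h, and 9 were higher and 1 lower at 72 h. Ctsc, a dipeptidyl peptidase that activates the serine proteases of leukocytes, changed most of the abundant members. It lay at 3.65 to 11.6 CPM (median 7.43) in naive, 26.7 to 48.9 CPM (median 39.6) at 24 h and 39.4 to 150 CPM (median 94.8) at 72 h. No injured library overlapped the naive ones. The changes were 2.43 ± 0.16 (adjusted p = 1.6e-16) at 24 h and 3.53 ± 0.22 (adjusted p = 7.5e-17) at 72 h.

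Ctsd, the main aspartic protease of the lysosome, moved late. Its level was 112 to 237 CPM (median 175) in naive cortex, 175 to 310 CPM (median 245) at 24 h and 831 to 2446 CPM (median 1522) at 72 h. The 24 h and naive libraries overlapped, and every 72 h library was above all others. Its change was 0.36 ± 0.12 (adjusted p = 0.0164) at 24 h and 2.87 ± 0.18 (adjusted p = 2.6e-16), a 7.31-fold rise, at 72 h. Per kilobase of exon, Ctsd went from the 7th highest median level of the 44 in naive cortex to the 2nd at 72 h, behind Psap.

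Ctsz, a carboxypeptidase, rose at both times, from 18.4 to 37.1 CPM (median 25.8) in naive to 45.7 to 84.4 CPM (median 65.7) at 24 h and 110 to 416 CPM (median 243) at 72 h. The 3 groups did not overlap, and the changes from naive were 1.14 ± 0.12 (adjusted p = 1.7e-10) and 2.86 ± 0.17 (adjusted p = 3.9e-17). Ctss, the microglial and macrophage protease of antigen presentation, lay at 29.5 to 49.4 CPM (median 42.0), 38.2 to 68.6 CPM (median 55.3) and 137 to 419 CPM (median 249) in the same order. Its groups overlapped between naive and 24 h and not at 72 h, where the change was 2.60 ± 0.19 (adjusted p = 2.2e-14).

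Ctsh, an aminopeptidase, had 7.59 to 12.1 CPM (median 9.47) in naive, 7.93 to 14.5 CPM (median 11.1) at 24 h and 16.9 to 104 CPM (median 63.1) at 72 h. It was not called at 24 h (0.18 ± 0.15, adjusted p = 0.379) and rose by 2.58 ± 0.22 (adjusted p = 9.7e-13) at 72 h. Lgmn rose from a median of 98.4 CPM (83.7 to 126) to 187 CPM (132 to 213) and 587 CPM (296 to 936), with no overlap of the groups. Ctsl, a cysteine endopeptidase, rose from 58.4 CPM (46.7 to 75.6) to 109 CPM (74.1 to 125) and 296 CPM (145 to 404); its naive and 24 h libraries overlapped.

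Among the other cathepsins, Ctsb rose at both times (0.37 and 1.38), Ctsa at 72 h alone (1.08), and Ctsk, the collagen-degrading member, was called at neither (0.72 and 0.81, adjusted p = 0.105 and 0.223). Ctsf fell at both times, by 0.29 at 24 h and by 0.30 at 72 h. With no batch term both calls for Ctsf were lost (-0.23, adjusted p = 0.0534 at 24 h, and -0.11, adjusted p = 0.344 at 72 h). Without LF3 the 72 h call was lost (-0.29, adjusted p = 0.0524).

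**Figure D2:**
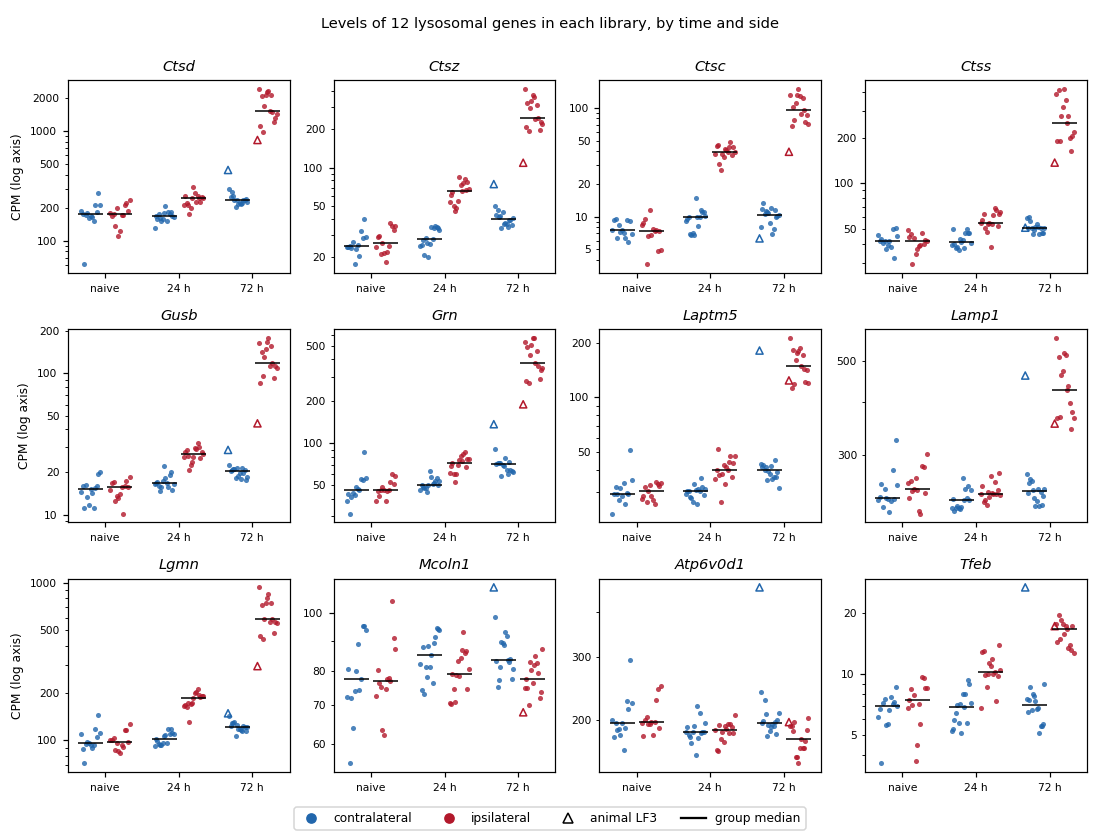
Level of 12 of the genes in each library (CPM, logarithmic vertical axis) by time on the horizontal axis, contralateral in blue and ipsilateral in red; points are libraries, triangles the animal LF3 and bars group medians. Ctsd steps up between 24 h (ipsilateral median 245 CPM) and 72 h (median 1522 CPM), while Ctsc had already left the naive range at 24 h.

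Glycosidases take sugars off glycoproteins, glycosaminoglycans and glycolipids. Of 8, 2 were higher and 2 lower at 24 h, and 7 were higher and 1 lower at 72 h. Gusb, the beta-glucuronidase, rose from 10.1 to 18.5 CPM (median 15.6) in naive to 20.7 to 32.1 CPM (median 26.9) at 24 h and 44.2 to 178 CPM (median 117) at 72 h. The 3 groups did not overlap, and the changes were 0.79 ± 0.12 (adjusted p = 5.3e-07) and 2.68 ± 0.17 (adjusted p = 2.4e-16). Naglu, which acts on heparan sulfate, stayed within 6.02 to 14.8 CPM (median 9.66) in naive and 8.13 to 13.2 CPM (median 11.1) at 24 h, and reached 10.2 to 52.0 CPM (median 34.9) at 72 h. Its lowest 72 h library was LF3, and the change at 72 h was 1.50 ± 0.20 (adjusted p = 6.6e-08).

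Hexa and Glb1, which degrade gangliosides, were called lower at 24 h and higher at 72 h than in naive cortex. Hexa fell by 0.28 (adjusted p = 0.017) at 24 h and rose by 1.21 (adjusted p = 4.7e-09) at 72 h. Glb1 fell by 0.46 (adjusted p = 8.4e-07) and then was higher by 0.31 (adjusted p = 0.0145) than in naive cortex. The difference between 72 and 24 h was called for both, at 1.49 for Hexa and 0.77 for Glb1. The 24 h call for Hexa was lost in batch B alone and in females alone. The 72 h call for Glb1 was lost in batch B alone and in males alone. Between the sides of the same animals at 24 h, Hexa was not called, being higher on the injured side in 8 of 15 and lower in 7. Gla, the alpha-galactosidase, was higher at both times (0.62 and 0.84), while Fuca1 (0.79) and Man2b1 (0.67) were called at 72 h alone. Gaa, the glycogen-degrading glucosidase, was lower at 72 h (-0.30, adjusted p = 0.0133), but its unadjusted median was 235 CPM against 209 CPM in naive cortex. The call for Gaa was lost without the batch term (-0.04, adjusted p = 0.678) and without LF3 (-0.22, adjusted p = 0.0545).

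The sulfatases remove sulfate from glycosaminoglycans. At 24 h 1 of 4 was lower and none higher, and at 72 h 2 were higher, Galns (1.15, adjusted p = 9.6e-05) and Sgsh (0.72, adjusted p = 0.0113). Arsb, which acts on dermatan and chondroitin sulfate, was at 50.2 to 65.5 CPM (median 56.5) in naive cortex and at 26.9 to 45.7 CPM (median 38.3) at 24 h. Arsb was the only member whose 24 h libraries all lay below the naive ones, and it fell by 0.61 ± 0.10 (adjusted p = 2.3e-06). By 72 h it was at 26.4 to 79.4 CPM (median 70.5) and not called (0.10, adjusted p = 0.599), with LF3 the lowest, and without LF3 it was higher (0.27, adjusted p = 0.0449). Ids was not called at 72 h (0.06, adjusted p = 0.774). LF3 stood at 1117 CPM of Ids against a group median of 395 CPM, and without LF3 Ids was lower (-0.39, adjusted p = 0.00021).

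The list of lipid hydrolases, activators and cholesterol export held 7 genes, Grn and Npc1 among them. Of the 7, 2 were higher and 1 lower at 24 h, and 3 were higher at 72 h. Without LF3, 3 were higher and 2 lower at 24 h, and 6 were higher at 72 h. Grn, the progranulin precursor taken up into lysosomes, rose from 38.6 to 59.9 CPM (median 46.4) in naive to 52.4 to 86.2 CPM (median 71.9) and 190 to 569 CPM (median 377). Its naive and 24 h libraries overlapped, and all 72 h libraries lay above them, with changes of 0.50 ± 0.11 (adjusted p = 0.00018) and 2.68 ± 0.16 (adjusted p = 2.2e-17). Lipa, which hydrolyses cholesteryl esters, rose from 16.0 to 20.7 CPM (median 18.7) to 21.9 to 26.6 CPM (median 24.6) and 37.1 to 114 CPM (median 75.9). The 3 groups of Lipa did not overlap, and its changes were 0.39 ± 0.11 and 1.85 ± 0.17 (adjusted p = 0.0041 and 3.4e-12).

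Psap, the precursor of the saposins that present lipids to hydrolases, had the highest median level per kilobase of the 44 at each time. Its level was 1279 to 1926 CPM (median 1374) in naive, 1226 to 1604 CPM (median 1387) at 24 h and 1494 to 2631 CPM (median 2002) at 72 h, and these groups overlapped. Its change at 72 h was 0.22 ± 0.10 (adjusted p = 0.0551), and it was called without LF3. Asah1, the acid ceramidase, was higher at 72 h (0.86, adjusted p = 2e-08). Gm2a, the GM2 activator, fell by 0.48 (adjusted p = 8.7e-06) at 24 h and was not called at 72 h (0.22, adjusted p = 0.152), where it was higher without LF3 (0.35, adjusted p = 0.0081). Npc1, the cholesterol exporter, was called at neither time with LF3, and without LF3 it was lower at 24 h (-0.23, adjusted p = 0.0067) and higher at 72 h (0.44, adjusted p = 0.0015), with all 14 libraries at 72 h above the naive ones. Smpd1, the acid sphingomyelinase, was called at neither time with or without LF3. Of the ceroid lipofuscinosis enzymes, Tpp1 was higher at 72 h (0.63, adjusted p = 2e-06) and Ppt1 was not called (0.05, adjusted p = 0.578).

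Of the 5 membrane proteins, 2 were higher at 24 h, and 4 were higher and 1 lower at 72 h. Laptm5, a transmembrane protein of blood-derived cells and microglia, lay at 26.0 to 34.2 CPM (median 30.5) in naive, 26.7 to 52.3 CPM (median 40.0) at 24 h and 112 to 212 CPM (median 149) at 72 h, and rose by 2.19 ± 0.13 (adjusted p = 4.3e-17) at 72 h. Lamp2, needed for chaperone-mediated autophagy, rose at both times, by 0.63 and 1.38 (adjusted p = 1.5e-06 and 2.9e-10). Lamp1, the most used lysosomal marker, was at 218 to 302 CPM (median 249) in naive and 228 to 272 CPM (median 243) at 24 h, and was not called then (-0.08, adjusted p = 0.344). All its 72 h libraries were above these, at 346 to 567 CPM (median 428), and the change was 0.69 ± 0.10 (adjusted p = 3.0e-07), or 1.61-fold.

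Scarb2, the receptor that carries glucocerebrosidase to lysosomes, was higher at 72 h by 0.34 (adjusted p = 0.00016). Mcoln1, the calcium channel of the lysosome, was lower at 72 h by the fit with batch (-0.24, adjusted p = 0.0079) and not called without the batch term (-0.03, adjusted p = 0.678). Its unadjusted medians were 76.9 CPM in naive cortex and 77.5 CPM at 72 h.

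Proton pump subunits went in different directions. Atp6v0d1, the widely expressed d subunit of the membrane sector, was at 180 to 249 CPM (median 198) in naive, 165 to 206 CPM (median 188) at 24 h and 152 to 203 CPM (median 178) at 72 h, and these groups overlapped. Against naive it was lower at both times, by -0.18 ± 0.05 (adjusted p = 0.0019) and -0.17 ± 0.07 (adjusted p = 0.047). The 24 h call was lost in batch A alone. Between the sides of the same animals at 24 h, Atp6v0d1 was not called, being higher on the injured side in 9 of 15 and lower in 6. The 72 h call was lost with DESeq2, with DESeq2 size factors, with no filter on low counts, without the library PF1, in males alone and in batch B alone, while the value stayed between -0.11 and -0.24. Its paralogue Atp6v0d2, known from osteoclasts and macrophages, had counts in 1 of 13 naive libraries (6 counts), 14 of 15 at 24 h (138 counts) and 14 of 15 at 72 h (267 counts). The highest library had 0.402 CPM in naive, 2.64 CPM at 24 h and 3.08 CPM at 72 h, so Atp6v0d2 stayed rare beside Atp6v0d1. It was called higher at both times (adjusted p = 0.00017 and 0.00015), and its fitted fold change rests on few naive counts and the prior count. The catalytic subunit Atp6v1a was higher at both times, by 0.24 and 0.29, and Atp6v1h was called at neither.

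All 3 transcription factors were higher at 24 h. These calls were lost for Tfeb and Tfe3 in batch B alone, for Tfeb in females alone and for Mitf in males alone. Tfeb lay at 3.75 to 9.68 CPM (median 7.46) in naive, 6.86 to 13.9 CPM (median 10.3) at 24 h and 12.7 to 19.5 CPM (median 16.7) at 72 h. The 72 h libraries were all above the naive ones, and the changes were 0.47 ± 0.11 and 1.05 ± 0.17 (adjusted p = 0.00064 and 1.5e-06). Mitf had medians of 7.76 CPM (6.91 to 9.92), 10.4 CPM (7.81 to 13.4) and 13.7 CPM (9.74 to 27.6), with changes of 0.42 ± 0.11 and 0.73 ± 0.17 (adjusted p = 0.0020 and 0.00037). Tfe3 was at 36.4 to 52.4 CPM (median 42.2) in naive, 44.6 to 66.9 CPM (median 56.2) at 24 h and 36.6 to 55.5 CPM (median 51.5) at 72 h. It was higher at 24 h (0.39 ± 0.06, adjusted p = 2.2e-06), not called at 72 h (0.10 ± 0.10, adjusted p = 0.388), and fell between 24 and 72 h (-0.29 ± 0.09, adjusted p = 0.0119). With no batch term it was higher at 72 h too (0.23, adjusted p = 0.0024), and the fall was not called in batch B alone (-0.20, adjusted p = 0.162) or in males alone. These are transcript levels, and the factors are controlled in large part by their place in the cell, which was not measured.

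The number of members whose ipsilateral groups did not overlap turned on LF3. Without LF3, 28 members had all 72 h libraries above all naive ones and 1 had them all below, while with LF3 it was 17 above and 0 below. Over all genes tested, 12.7% lay wholly above and 4.67% below without LF3, and 7.75% and 3.82% with it. Against the 24 h libraries, 16 members lay wholly above with LF3 and 26 without it, with 3.36% and 7.46% of genes. At 24 h 5 members lay wholly above the naive libraries and 1 below, with 5.11% and 2.44% of genes.

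Other lysosomal genes were counted from lists of the same pathway. For all the list counts below, the shares over all genes tested were 22.9% higher and 20.1% lower at 24 h. At 72 h they were 27.8% higher and 20.7% lower, and 25.7% and 22.6% without LF3. Of 22 further lumenal enzymes, 6 were higher and 2 lower at 24 h and 14 higher and 0 lower at 72 h, led by Acp5, the tartrate-resistant phosphatase (5.16), Ctse (4.58, or 3.05 with no batch term) and Dnase2a (2.16). Naive medians were 0.244 CPM for Acp5 and 0 CPM for Ctse, so these fitted changes rest on few counts and the prior count. Of 20 further membrane proteins, 7 were higher and 4 lower at 72 h, with Cd63 at 4.18, Cd68, the macrophage marker, at 4.13 and Slc15a3 at 3.57. Without LF3 Cd63 was higher by 2.57, and LF3 held 2715 CPM against 147 to 314 CPM in the other 72 h libraries. Of 16 other pump subunits, 7 were higher and 1 lower at 72 h, and 4 were higher and 5 lower without LF3; Atp6v0b went from 2.54 with LF3 to -0.14, not called, without it. Tcirg1, the pump's a3 subunit, was higher either way (1.93 and 2.09), and Atp6v0e went from 2.71 to 0.73.

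Of 8 sorting receptors and tagging enzymes, 3 were higher and 3 lower at 72 h, and Sort1, the sortilin receptor, fell by 1.05, while Nagpa (0.69) and Gnptab (0.62), which make the mannose 6-phosphate tag, were higher. Of the 5 cathepsin inhibitors tested, 3 were higher and 0 lower at 72 h, namely Cst7 (5.87), Cstb (3.24, or 1.40 without LF3) and Serpinb6a (1.03). Of 12 autophagy genes, 2 were higher and 3 lower at 72 h, near the shares over all genes (27.8% higher, 20.7% lower). Without LF3 4 were higher and 5 lower, where 25.7% and 22.6% of genes were. Sqstm1, an autophagy receptor, and Uvrag were lower (-0.31 and -0.50), the former not called with no batch term (-0.15, adjusted p = 0.0718), and Gabarap was higher by 2.93 with LF3 and by 0.71 without it. Of 12 regulators of the Tfeb family, 4 were higher and 4 lower, and Tfec, the family's macrophage member, was higher by 4.74 from a naive median of 0 CPM. Fnip2 was higher by 1.14, and Lamtor4 went from 1.51 to 0.31, not called, without LF3.

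Markers of other cells also differed between these groups. Beside their counts, 22.9% of all genes tested were higher and 20.1% lower at 24 h, and 27.8% and 20.7% at 72 h. The summed level of 8 microglial markers was 187 to 240 CPM (median 215) in naive, 126 to 212 CPM (median 181) at 24 h and 301 to 778 CPM (median 567) at 72 h, with 2 higher and 6 lower at 24 h and 7 higher at 72 h. The 9 monocyte and macrophage markers summed to 6.39 to 41.9 CPM (median 13.03), 30.3 to 173 CPM (median 61.4) and 46.8 to 335 CPM (median 89.6), with 6 higher and 1 lower at 24 h and 7 higher at 72 h. The 9 neutrophil markers summed to medians of 9.27, 69.0 and 46.6 CPM, and all 9 were higher at 24 h. The 10 markers of cortical neurons had medians of 6837, 6596 and 4823 CPM, with 1 higher and 5 lower at 72 h. LF3 held 13850 CPM of them against 3041 to 5903 CPM in the other 72 h libraries. LF3 was also the lowest 72 h library for the microglial sum, which started at 411 CPM without it. Of 8 endothelial markers 6 were higher at 72 h, and their sum of 393 to 682 CPM (median 505) lay above the naive 213 to 312 CPM (median 287). The 8 oligodendrocyte markers had medians of 2778, 3719 and 5547 CPM, with 6 higher at 72 h, and the 8 astrocyte markers 5503, 3146 and 2955 CPM, with 1 higher and 6 lower at 24 h and 2 higher and 3 lower at 72 h. The 8 markers of neighbouring hippocampus, striatum and thalamus summed to 265 to 353 CPM (median 319) in naive, 471 to 843 CPM (median 665) at 24 h and 333 to 765 CPM (median 452) at 72 h. The highest of these 72 h libraries was LF3, and the others reached 713 CPM. All 5 red cell markers were higher at both times, with medians of 31.4, 76.0 and 132 CPM, and the 5 choroid plexus markers had medians of 6.36, 7.09 and 16.1 CPM, with 786 CPM in 1 library at 72 h. None of these markers was at 0 in the ipsilateral groups. The part of these cell types and regions in the members' changes was not tested.

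**Figure D3:**
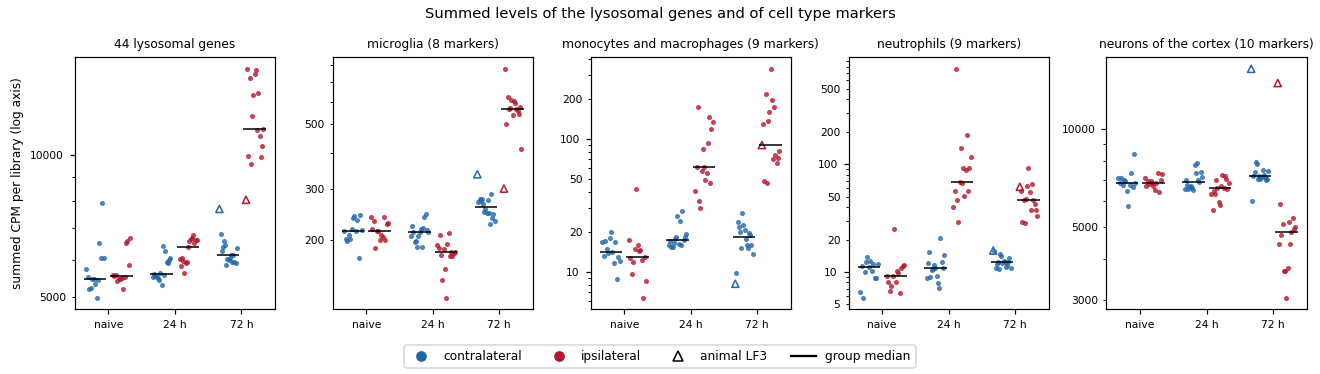
Summed level in each library (CPM, logarithmic vertical axis) of the 44 lysosomal genes and of 4 lists of cell type markers, by time; blue points are contralateral and red ipsilateral libraries, triangles the animal LF3 and bars group medians. The ipsilateral sum of the lysosomal genes (median 11370 CPM at 72 h) and that of the microglial markers (median 567 CPM) were both higher at 72 h than in naive cortex.

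Few members were called in the cortex opposite the injury. At 24 h 0 of the 43 members tested there were called (0.819% of 18436 genes higher, 1.29% lower); 5 had an unadjusted p under 0.05, and DESeq2 also called 0. Without LF3, 3 were lower at 24 h (Hexa, Lamp1 and Atp6v0d1), where 2.39% of genes were higher and 4.07% lower. At 72 h 4 of 43 were higher and 0 lower, where 0.244% of genes were higher and 0.0163% lower. These were Ctsz (0.67 ± 0.12, adjusted p = 0.0060), Grn (0.62 ± 0.13, adjusted p = 0.0183), Gusb (0.45 ± 0.10, adjusted p = 0.032) and Laptm5 (0.93 ± 0.22, adjusted p = 0.0471). The contralateral median of Ctsz was 24.4 CPM in naive, 27.8 CPM at 24 h and 39.8 CPM at 72 h. That of Grn was 46.0, 50.3 and 70.6 CPM, and the groups overlapped for every member tested.

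LF3 held 181 CPM of Laptm5 on its contralateral side, against at most 45.2 CPM in the other 72 h libraries. Without LF3 only Ctsz was called (0.48, adjusted p = 0.0146; 0.0922% of genes higher). With the contralateral libraries of CM1 and KM2 left out as well as LF3, 4 members were higher. Ctsz, Grn and Laptm5 kept their calls, Gusb lost its call and Ctsd gained one, with 0.137% of genes called in either direction. Without the batch term and with all libraries, 11 members were higher, which added Ctsc, Ctsd, Ctsl, Ctss, Lgmn, Hexa and Man2b1 to the first 4. Calls rose over all genes too, to 7.9% in either direction, where the fit with batch called 0.244% higher and 0.0163% lower. Ctsd had contralateral medians of 177, 167 and 235 CPM and was not called by the fit with batch and all libraries (0.57 ± 0.15, adjusted p = 0.0917). Microglial markers on this side summed to 226 to 337 CPM (median 261) at 72 h.

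Comparing the sides within each animal used 43 mice, with the animal as a block. In naive mice 0 of 44 members differed between right and left, none had an unadjusted p under 0.05, and 0% of 19946 genes were called in either direction. At 24 h 18 were higher and 7 lower on the injured side (23.7% of genes higher, 24.1% lower), and at 72 h 35 were higher and 6 lower (31.1% higher, 30.6% lower). At 24 h 13 members were higher and 2 lower (Arsb and Man2b1) in all 15 animals, with 11.2% of genes higher and 8.47% lower in all. At 72 h 18 were higher in all 15 animals and 15 more in all but 1, and Atp6v0d1 and Ctsf were lower in all 15, with 14% of genes higher and 11.7% lower in all. Without LF3 the counts of called members were 21 higher and 7 lower at 24 h and 36 higher and 6 lower at 72 h. Of all genes, 51.6% at 24 h and 64.1% at 72 h were then called in either direction.

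The side differences at 72 h were led by Ctsc (3.25 ± 0.11), Ctsd (2.69 ± 0.13), Ctsz (2.64 ± 0.12), Gusb (2.56 ± 0.11), Ctsh (2.48 ± 0.11) and Grn (2.41 ± 0.11). The 6 lower members were Ids (-0.38), Ctsf (-0.28), Gaa (-0.24), Atp6v0d1 (-0.24), Mcoln1 (-0.18) and Atp6v1h (-0.15). Ctsf, Gaa and Mcoln1 were therefore also lower within animals, where batch is shared by the sides. In batch C alone all 41 called members, these 6 among them, kept their calls. In batch B alone only Ids of the 6 kept its call. Ctsf and Atp6v1h were lost in females alone, and Gaa, Mcoln1, Atp6v0d1 and Atp6v1h in males alone. Mcoln1 and Atp6v1h were lost with no filter on low counts, and Atp6v1h with DESeq2 size factors. Smpd1, Atp6v1a and Arsb were not called. At 24 h the lower members were Arsb (-0.61), Glb1 (-0.34), Ctsf (-0.30), Gm2a (-0.28), Man2b1 (-0.24), Npc1 (-0.21) and Ids (-0.17).

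**Figure D4:**
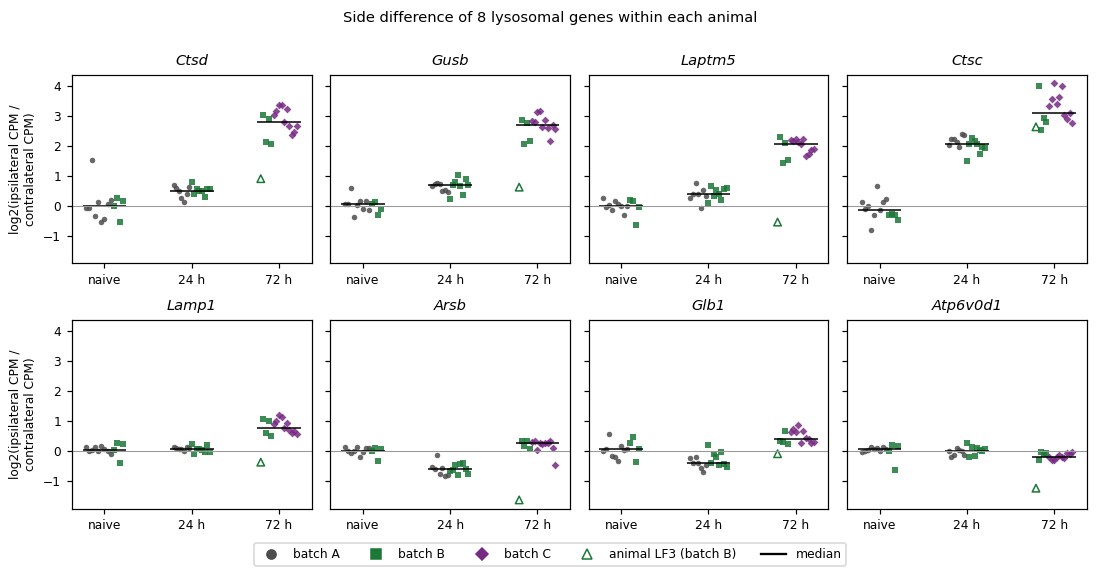
Log2 ratio of ipsilateral to contralateral CPM within each animal (vertical axis) for 8 genes in naive mice and at 24 and 72 h; points are animals, marked by batch, triangles the animal LF3 and bars medians. Naive animals lie about 0, the points of Ctsc lie above 0 in all 15 animals at each injured time, and those of Arsb lie below 0 in all 15 at 24 h.

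The signed difference between sides, ipsilateral minus contralateral on the log2 scale, was higher at 72 h than at 24 h for 33 of 44 members. It was lower for 3, and over all genes 18.9% were higher and 16.4% lower. A higher value is not always a wider gap. Arsb, lower on the injured side at 24 h and not called at 72 h, counts as higher. Ids counts as lower, though its gap widened. The median change of the signed difference was 0.75. It was largest for Ctsd (2.20 ± 0.17), Ctsh (2.18), Grn (1.96) and Gusb (1.93). It was lower for Atp6v1h (-0.27, adjusted p = 0.0101), Ids (-0.22, adjusted p = 0.0166) and Atp6v0d1 (-0.22, adjusted p = 0.0322).

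No difference between the sexes in the response was called. Of the 44 members 0 were called for an interaction of sex and injury at 24 h and 0 at 72 h on the injured side, none had an unadjusted p under 0.05, and 0% of genes were called. DESeq2 called 0 members, and 1 gene overall at 24 h. For Ctsd the female minus male difference in response was 0.03 at 72 h, with a 95% interval of -0.45 to 0.51. Ctsc had 0.24 (-0.33 to 0.80) and Gusb -0.19 (-0.64 to 0.26) at 72 h. At 72 h Ctsd ranged from 831 to 2281 CPM (median 1683) in 9 females and from 988 to 2446 CPM (median 1485) in 6 males.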

How the data were processed

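Polyadenylated RNA of 88 cortical punches from 44 mice was sequenced, per the labels' protocols, to 20 M reads or more. The submitters' processing notes name HISAT2 2.0.5 and the mm10 build; which program counted reads, with which annotation and strand setting, is not given in the sources used here. All values start from raw counts, deposited by the authors as a single table of genes by libraries. From these deposited counts, CPM and log2 fold changes were computed here with edgeR 4.0.16 (filterByExpr, TMM, quasi-likelihood test, Benjamini-Hochberg adjustment over all genes tested) in R 4.3.3. Symbols came from GENCODE M21 (GRCm38).

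Each side was fitted over 6 groups of sex and time with the labelled batch (19126 genes and 43 libraries ipsilateral, 18436 genes and 44 libraries contralateral), and contrasts were averaged over the sexes. The sides were compared over 19946 genes in 43 animals with the animal as a block; the sides are paired because the labels give each library its animal. For PM1 the ipsilateral library is female by title and sex label while the other side is labelled male, so it entered no comparison. Each library is a separate mouse within its group. Pairs of libraries of a group were compared by their counts, and none were identical; the closest pair had a chi-square of 2.64 per gene, where sampling alone gives about 1.

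The members and gene lists were chosen with earlier results of these data known. Named in full were the 12 members with the largest called change at an average log2 CPM of at least 1, plus Lamp1, Ctsd, Psap, Atp6v0d1, Atp6v0d2, Tfeb, Tfe3 and Mitf, and for each pathway list up to 3 called genes of largest change at either time. The code was tested on simulated counts. Alternatives were DESeq2 1.42.0, DESeq2 size factors, no filter, no batch term, single batches, single sexes and libraries left out; those that leave out LF3, CM1 or KM2 were chosen after seeing the data. Precision is limited by counting at low levels and by the spread between mice otherwise.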

Additional observations from a re-analysis of the deposited data

Results flagged for a closer look

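An outlying library was looked for in 113 groups of 4 to 10 samples, and 9 were found by Dixon's criterion, which flags about 1 group in 20 by chance. Ctsl stood at 75.6 CPM in 1 naive female (KF2). Atp6v0d1 stood at 165 CPM in 1 female at 24 h (DF3) and at 249 CPM in 1 naive male (KM3). Atp6v0d2, with few counts throughout, stood at 1.39 CPM in 1 female (RF1) and 2.64 CPM in 1 male (DM2) at 24 h, and at 0.402 CPM in 1 naive male (EM3). Tfe3 stood at 36.6 CPM in the 72 h female LF3, at 45.9 CPM in 1 male at 72 h (PM2) and at 51.2 CPM in 1 naive female (KF3). All these libraries were ipsilateral.

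By edgeR's test of the difference itself, the signed side difference (ipsilateral minus contralateral) changed from 24 to 72 h in 36 members. It was higher at 72 h for 33 and lower for 3.

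The ipsilateral library of PM1, left out of every comparison for its conflicting sex labels, held 34 members above the highest naive ipsilateral library. All 44 of its members lay within the range of the other 72 h ipsilateral libraries.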

How the results depend on the processing

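Of the recomputed counts of called members, 180 stayed within 1.5 times the reported count and 25 did not. Of the recomputed values of the 19 key members, 1991 kept their direction and call, 30 gained a call, 59 lost it and 0 reversed. Without animal LF3, the members called lower at 24 h went from 6 to 10 (also 10 with no batch term). Those lower contralaterally at 24 h went from 0 to 3, or to 2 when the contralateral libraries of CM1 and KM2 were left out too. Those higher contralaterally at 72 h went from 4 to 1, or to 12 with no batch term. With LF3 and those libraries of CM1 and KM2 all left out, 4 were higher contralaterally at 72 h. With no batch term alone, 2 rather than 4 members were lower at 72 h and 11 rather than 4 were higher contralaterally. Of all genes, 7.9% were then called contralaterally at 72 h in either direction, and 10.4% with LF3 left out as well. In batch B alone, 9 members were higher at 24 h, 0 were lower at 72 h against 24 h, and 0 were higher contralaterally at 72 h. There the sides differed with 1 member lower at 24 h and 1 at 72 h, and the side difference changed upward in 20 and downward in 0. In males alone, 0 members were lower at 72 h, 1 was lower against 24 h, 0 were higher contralaterally, 4 and 2 were lower on the injured side at 24 and 72 h, and 0 side differences went down; in females alone 1 did. With no filter on low counts, 1 member was lower at 72 h, 1 against 24 h, and 1 side difference went down. Single batches and sexes hold fewer libraries.

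With no replicate block for the animal, 19 members were higher and 6 lower at 24 h in the side comparison. At 72 h 34 were higher and 6 lower, and in naive mice 0 differed. Of the signed side differences, 32 were higher and 3 lower at 72 h than at 24 h. Of the 34 members called at 72 h on the injured side, 32 were also called without LF3; Ctsf and Gaa were lost. Low counts limit Atp6v0d2, which the filter on low counts removed contralaterally; with no filter it was tested there and not called.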
